A study of Mus musculus with 6 samples.

Results

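The genes described here carry out glycolysis and glycogen metabolism: enzymes that take glucose to lactate, enzymes that build and break down glycogen, and 2 glucose transporters. They were taken by symbol from the deposited tables of a mouse tibia RNA-seq study, and 34 symbols matched 35 of the 56748 genes in those tables, since Aldoa stands there under 2 identifiers. The tibiae came from female mice 12 weeks old, 3 samples labelled heterozygous for Col1a1 (Col1a1+/-) and 3 labelled wild type (WT). Col1a1 encodes the main chain of type I collagen, and the series title describes the mouse as modelling osteogenesis imperfecta type I. That title also names an antibody treatment, which the labels of these 6 samples do not give. Bones were flushed of marrow, frozen and disrupted whole, and libraries were made from polyadenylated RNA, so that muscle or tendon left on the bone would also be read. The labels give neither the allele nor the strain, and do not say that each sample is a separate animal, so p-values measure the spread between these samples, which may be technical.

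Glycolysis splits glucose into pyruvate and yields ATP without oxygen. Skeletal muscle draws on it for fast contraction and keeps a store of glycogen for it, and many steps have a form of the enzyme found mostly in muscle beside a form used by most other tissues. Osteoblasts are also known to use glucose mainly through glycolysis. The 34 genes were grouped by this textbook distribution, with earlier results of these data known. The classes were 8 muscle isoforms, 2 isoforms shared by muscle and fat and 1 of liver and muscle. The others were 11 general or non-muscle isoforms and 12 forms that muscle shares with other tissues.

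Promoters are shown because muscle and general isoforms held different counts of 2 of the 5 short motifs searched, a description with no test. Windows from 250 bases before to 50 bases after annotated starts were taken from RefSeq (build GRCm38.p6), where 33 of the 34 symbols had 49 windows and Slc2a4 had none. The 4 shown belong to Pgam2, Pygm and Eno3, muscle isoforms, and to Pgam1, the general partner of Pgam2. Capitals mark CAGCTG, an E-box of the kind that myogenic factors bind, and GGGCGG, the GC box of many broadly used promoters. Each was searched on both strands. The muscle isoforms shown all hold the E-box and lack the GC box. Among the other muscle isoforms, Pfkm and Phkg1 lack the E-box in every window, and Phka1 holds the GC box. The windows lie at chr11:5803747-5804046 on the minus strand, chr19:6384158-6384457 on the plus strand, chr11:70656926-70657225 on the plus strand and chr19:41911621-41911920 on the plus strand.
Pgam2: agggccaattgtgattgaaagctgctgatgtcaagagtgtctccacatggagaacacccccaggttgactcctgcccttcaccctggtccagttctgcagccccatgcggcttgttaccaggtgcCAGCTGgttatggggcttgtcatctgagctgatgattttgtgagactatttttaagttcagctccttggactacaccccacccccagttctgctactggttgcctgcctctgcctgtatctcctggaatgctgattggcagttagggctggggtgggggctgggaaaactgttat
Pygm: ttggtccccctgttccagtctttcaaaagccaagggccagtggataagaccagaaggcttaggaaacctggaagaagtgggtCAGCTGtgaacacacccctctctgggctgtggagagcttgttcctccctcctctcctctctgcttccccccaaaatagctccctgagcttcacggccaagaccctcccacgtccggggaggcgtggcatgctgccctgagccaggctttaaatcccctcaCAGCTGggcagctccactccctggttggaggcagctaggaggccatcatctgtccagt
Eno3: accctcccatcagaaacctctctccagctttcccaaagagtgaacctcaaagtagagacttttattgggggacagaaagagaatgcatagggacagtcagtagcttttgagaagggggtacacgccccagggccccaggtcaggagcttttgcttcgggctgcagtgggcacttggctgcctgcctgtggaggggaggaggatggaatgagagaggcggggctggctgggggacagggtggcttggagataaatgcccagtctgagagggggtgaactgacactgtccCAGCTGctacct
Pgam1: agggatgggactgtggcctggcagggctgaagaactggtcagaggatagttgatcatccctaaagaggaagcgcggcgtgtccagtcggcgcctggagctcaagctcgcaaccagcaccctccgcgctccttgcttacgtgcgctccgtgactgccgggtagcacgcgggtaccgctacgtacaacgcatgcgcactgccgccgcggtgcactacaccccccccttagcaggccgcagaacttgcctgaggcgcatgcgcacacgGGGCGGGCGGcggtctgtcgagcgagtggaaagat

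Counted by window, the E-box CAGCTG stood in 6 of the 11 windows of muscle isoforms, in 0 of the 16 of general isoforms, in 7 of the 17 of shared forms and in 16.3% of the 32851 windows of all genes. The GC box GGGCGG stood in 1 of 11 muscle isoform windows, 10 of 16 general isoform windows, 12 of 17 shared form windows and 35.7% of all windows. Median GC content was 53.3% in muscle isoform, 62.8% in general isoform and 63.3% in shared form windows, and 52.7% in all windows. The motif counts were not adjusted for it. By gene, 6 of 8 muscle isoforms and 0 of 11 general isoforms had the E-box in at least 1 window, and 1 of 8 muscle isoforms and 8 of 11 general isoforms had the GC box. The other 3 motifs were also counted by window. The hypoxia element ACGTG was in 4 of 11 muscle and 8 of 16 general isoform windows (19.6% of all), a MEF2-like motif (CTA, any 4 bases, TAG) in 2 of 11 and 1 of 16 (3.69%), and TATAAA in 1 of 11 and 1 of 16 (13.6%). The MEF2-like motif can contain TATAAA, and does so in the Ppp1r3a window, so those counts are not separate. Neighbouring matches can also overlap. Matches of letters are a description of these windows and no evidence of binding, and several windows of 1 gene can overlap.

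Libraries held 26830644 to 32379684 counted reads. Col1a1 itself did not part the genotypes by level. It had 61149, 52880 and 59598 CPM (counts scaled to one common library total) in Col1a1+/- and 36810, 61347 and 54799 CPM in WT. Its count relative to the partner chain gene Col1a2 was 0.836, 0.775 and 0.823 in Col1a1+/- and 1.32, 1.25 and 1.27 in WT. Col1a2 had 73118, 68194 and 72425 CPM in Col1a1+/- and 27904, 49103 and 43108 CPM in WT, without overlap. Its log2 fold change was 0.83 (SE 0.32, adjusted p = 0.159 by edgeR). All CPM values carry edgeR's TMM scaling (a trimmed mean of log ratios between libraries). A list of 27 skeletal muscle fibre markers, none of them a member and none at 0, took 2.27%, 4.20% and 2.01% of counts in Col1a1+/- against 6.42%, 6.68% and 8.46% in WT. In bulk tissue fewer muscle fibres and less RNA per fibre cannot be told apart. Wild-type replicate 1 stood apart in neutrophil markers, with 0.590% of its counts, where no other library passed 0.165%. Osteoblast markers took 8.74% ± 0.504 of counts in Col1a1+/- and 4.57% ± 0.816 in WT (SD, n = 3 each). Most of that share was Col1a2, which is on this list of 11 markers. By edgeR 6 of the 11, Col1a2 not among them, were higher at an adjusted p under 0.05 and 0 lower. Of all tested genes 1.43% were higher and 2.91% lower.

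Among the genes of glycolysis and glycogen metabolism, 6 of 8 muscle isoforms and 10 of 12 shared forms fell in Col1a1+/- tibia, against 1 of 11 general isoforms. By edgeR's quasi-likelihood test 19 of 34 members fell at a Benjamini-Hochberg adjusted p under 0.05, where 2.91% of all 18514 tested genes fell, and 0 rose, where 1.43% of all genes rose. At an unadjusted p under 0.05 there were 24 lower and 1 higher, where 4228 of all 18514 tested genes passed in either direction. DESeq2 called 24 lower (8.78% of all genes with an adjusted p) and 1 higher, Aldoc (4.72%). With edgeR and no filter on low counts 10 members were lower (2.75% of 32504 genes), 2 of them muscle isoforms, and Pfkm (adjusted p = 0.159), Eno3 (0.161), Pygm (0.144) and Pgam2 (0.184) did not pass. The median log2 fold change was -1.43 for the 8 muscle isoforms, -1.42 for Hk2 and Slc2a4, -1.07 for the 12 shared forms and 0.16 for the 11 general isoforms, beside -0.01 for all tested genes. On a scale set by osteocyte markers, which moves the median of all genes to -0.65, the general isoform median turned to -0.52 and that of the muscle isoforms was -2.05. The number of members called rested on single libraries, as did the number over all tested genes. It was 0 without Col1a1+/- replicate 1 or 3 and without WT replicate 2 or 3. It was 18 without WT replicate 1 and 23 without Col1a1+/- replicate 2. In that order, 25, 25, 27, 25, 28 and 25 members stayed at an unadjusted p under 0.05. Of all 19063 to 19225 genes tested in these fits, 3111 to 5115 did so. At an adjusted p under 0.05, 0 to 1172 of all tested genes were lower and 0 to 594 higher. The number lower was 0 without Col1a1+/- replicate 1 and 12 without replicate 3. It was 762 without Col1a1+/- replicate 2 and 1172 without WT replicate 1.

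**Figure D1:**
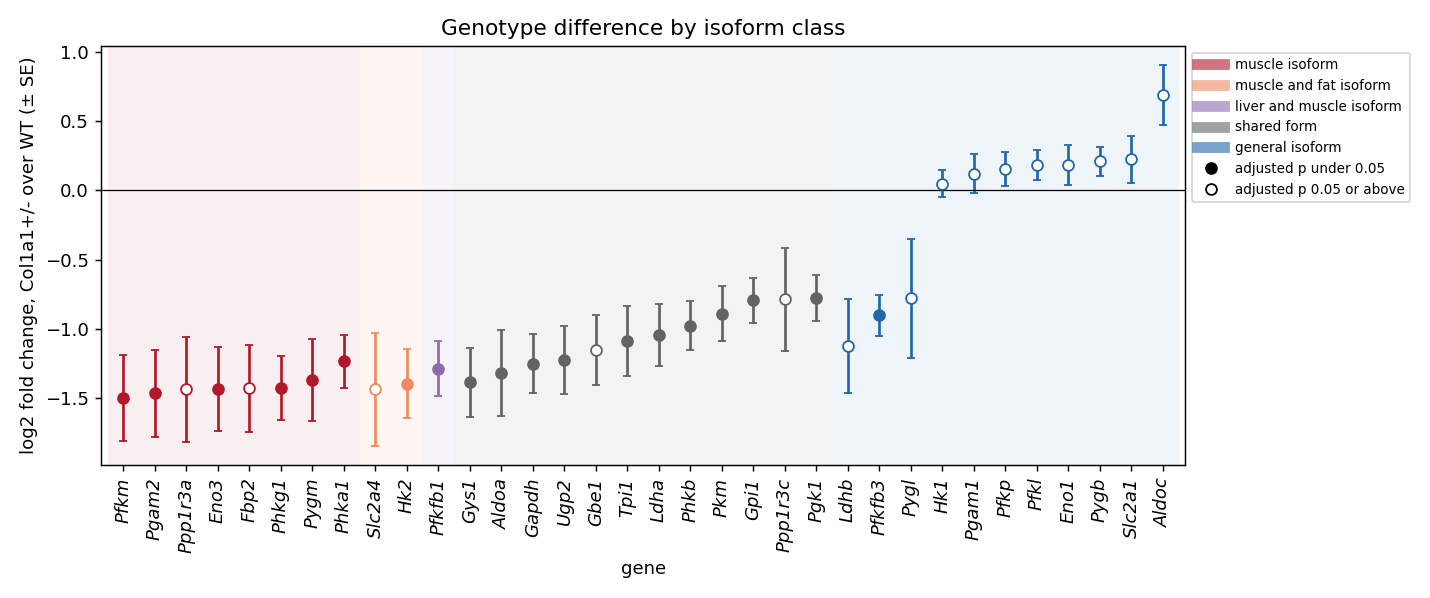
Log2 fold change of each gene, Col1a1+/- over WT, with its SE, from edgeR over 3 libraries in each group; filled points passed an adjusted p of 0.05 and colours give the isoform class. The muscle isoforms lie between -1.50 and -1.24, the shared forms between -1.39 and -0.78, and 8 of the 11 general isoforms lie above 0, Aldoc at 0.69 and the other 7 between 0.05 and 0.23.

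The 3 muscle isoforms of glycolysis fell, with mean CPM in WT 2.71 to 2.83 times that in Col1a1+/-. Pfkm, the muscle phosphofructokinase that commits sugar to glycolysis (chromosome 15, 97990470 to 98030332, plus strand, GRCm39), had 491, 899 and 444 CPM in Col1a1+/- against 1336, 1625 and 2238 CPM in WT. All 3 Col1a1+/- libraries lay below all 3 WT libraries, with -1.50 on the log2 scale by edgeR (SE 0.31, adjusted p = 0.0405). Of the Pfkm exon length, 10.7% is shared with Gm26513 on the same strand, and reads over both were not counted. Pgam2, the muscle phosphoglycerate mutase (chromosome 11, 5751640 to 5753733, minus strand), had 294, 516 and 258 CPM in Col1a1+/- and 682, 1043 and 1230 CPM in WT, and edgeR put the log2 fold change at -1.47 with an SE of 0.31 (adjusted p = 0.046). Eno3, the muscle enolase (chromosome 11, 70548028 to 70553339, plus strand), had 631, 1245 and 631 CPM in Col1a1+/- and 1818, 2118 and 2846 CPM in WT, for which edgeR gave -1.44 on the log2 scale (SE 0.31, adjusted p = 0.0418). In each of these genes Col1a1+/- replicate 2 was the highest of its group and WT replicate 3 the highest of all.

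The glycogen-degrading muscle isoforms fell as well. Pygm, the muscle glycogen phosphorylase that frees glucose units from glycogen (chromosome 19, 6434429 to 6448489, plus strand), stood at 690, 1338 and 656 CPM in Col1a1+/- and 2024, 2130 and 2788 CPM in WT. Its log2 fold change was -1.37 (SE 0.30, adjusted p = 0.0422 by edgeR). Phosphorylase kinase switches Pygm on, and its muscle alpha subunit gene Phka1 had 83.8, 141 and 106.6 CPM in Col1a1+/- against 253, 231 and 296 CPM in WT (log2 fold change -1.24, SE 0.19, adjusted p = 0.0238). The catalytic gamma subunit gene Phkg1 had 69.9, 105 and 54.4 CPM in Col1a1+/- against 196, 191 and 231 CPM in WT (log2 fold change -1.43, SE 0.23, adjusted p = 0.0263). Phkb, the beta subunit gene, which muscle shares with other tissues, had 73.2, 109 and 72.4 CPM in Col1a1+/- and 165, 150 and 187 CPM in WT (log2 fold change -0.98, adjusted p = 0.0286). The groups did not overlap in any of these 4 genes. Part of Phkg1 exon length, 9.68% of it mainly with Sumf2 on the opposite strand, is shared with other genes.

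A pair of muscle isoforms missed the threshold. Fbp2, the muscle fructose bisphosphatase that runs the phosphofructokinase step backwards, had 6.20, 14.8 and 7.91 CPM in Col1a1+/- and 30.7, 24.6 and 22.5 CPM in WT (log2 fold change -1.43, SE 0.31, adjusted p = 0.0505). Ppp1r3a, which tethers protein phosphatase 1 to glycogen in muscle, had 22.3, 47.1 and 17.8 CPM in Col1a1+/- and 70.7, 66.2 and 99.4 CPM in WT (log2 fold change -1.44, SE 0.38, adjusted p = 0.0811). Neither gene's groups overlapped.

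Insulin acts on muscle and fat through the transporter GLUT4 and through hexokinase 2, which traps the glucose that enters. Hk2 fell, with 71.9, 91.7 and 51.9 CPM in Col1a1+/- against 151, 171 and 246 CPM in WT (log2 fold change -1.40, SE 0.25, adjusted p = 0.0336). Slc2a4, which encodes GLUT4, had 60.02, 112 and 43.9 CPM in Col1a1+/- and 138, 169 and 278 CPM in WT, a log2 fold change of -1.44 that did not pass (SE 0.41, adjusted p = 0.0969). In both genes the highest Col1a1+/- library was replicate 2 and lay below the lowest WT library. The adipocyte marker list, the other tissue of these isoforms, took 0.0335% to 0.0501% of counts in Col1a1+/- and 0.0344% to 0.0553% in WT, with 0 of 6 tested markers called by edgeR (1 lower and 0 higher at an unadjusted p under 0.05).

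**Figure D2:**
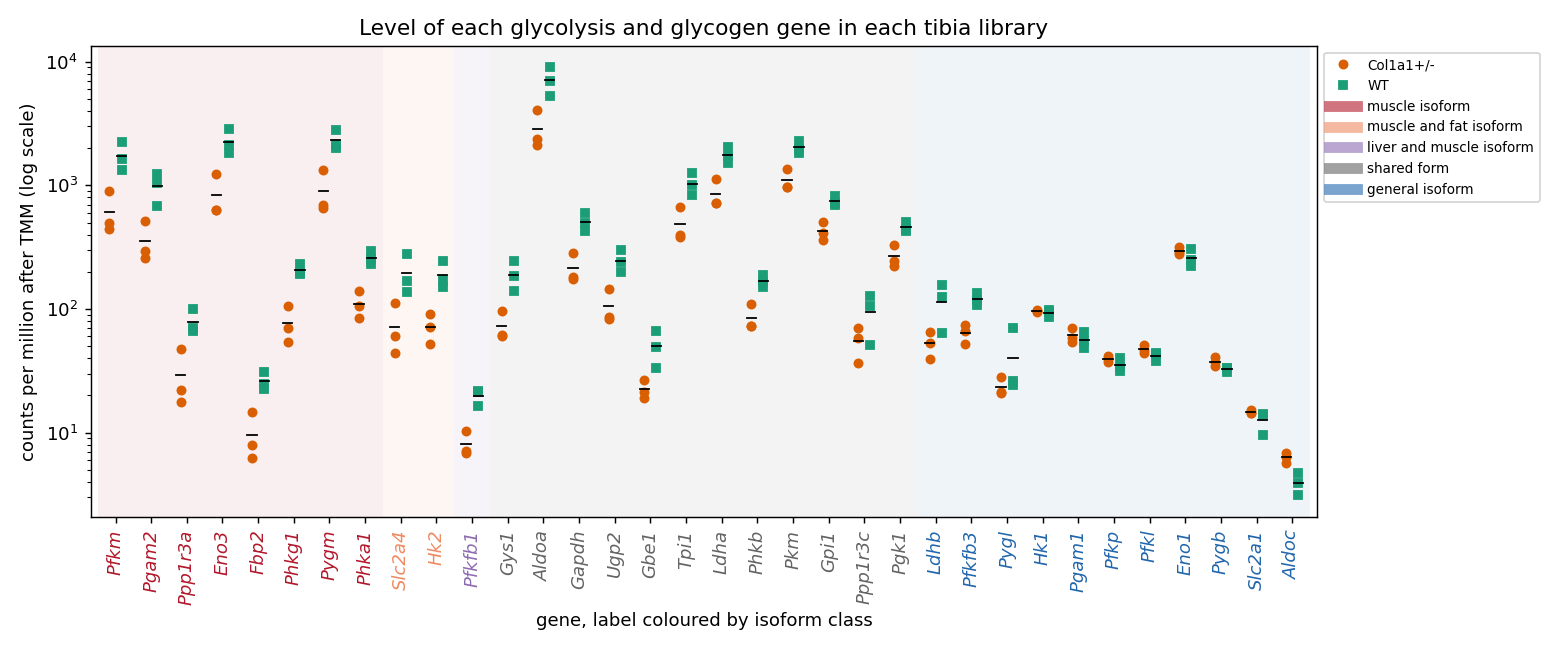
CPM of each gene (log axis) in the 3 Col1a1+/- libraries (circles) and the 3 WT libraries (squares), with short lines at the group means; gene labels and shading give the isoform class. In the muscle isoforms every circle lies below every square, whereas the groups overlap in 7 of the 11 general isoforms.

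Of the 12 forms that muscle shares with other tissues, 10 fell, and over the 12 the mean CPM in WT was 1.72 to 2.62 times that in Col1a1+/-. Aldoa, the aldolase of muscle, red cells and most other tissues and the most abundant member, had 2379, 4054 and 2103 CPM in Col1a1+/- and 5302, 7002 and 9010 CPM in WT (log2 fold change -1.32, SE 0.31, adjusted p = 0.0495). The second identifier that carries its symbol, ENSMUSG00000114515, lies directly upstream on the same strand and had 6.08, 12.7 and 7.34 CPM in Col1a1+/- and 20.5, 20.7 and 34.1 CPM in WT (log2 fold change -1.53, adjusted p = 0.0463). Gapdh, which oxidises the triose phosphate and is often used to scale expression, had 174, 281 and 183 CPM in Col1a1+/- and 427, 499 and 593 CPM in WT. The groups did not overlap, and its log2 fold change was -1.25 (SE 0.21, adjusted p = 0.0257). Reads mapped to several places were not counted, so genes with many processed copies, such as Gapdh, may be undercounted.

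The remaining shared enzymes of glycolysis also fell. Tpi1, triose phosphate isomerase, had 397, 670 and 383 CPM in Col1a1+/- against 831, 1009 and 1249 CPM in WT (log2 fold change -1.09, adjusted p = 0.0481). Ldha, which reduces pyruvate to lactate, had 720, 1132 and 716 CPM in Col1a1+/- and 1519, 1737 and 2052 CPM in WT (log2 fold change -1.05, adjusted p = 0.0406). Pkm, pyruvate kinase, had 961, 1363 and 963 CPM in Col1a1+/- and 1826, 1972 and 2297 CPM in WT (log2 fold change -0.89, adjusted p = 0.0447), with 15.3% of its exon length shared, mostly with Gm49759 on the same strand. Gpi1, the isomerase that follows hexokinase, had 413, 508 and 363 CPM in Col1a1+/- and 690, 714 and 825 CPM in WT (log2 fold change -0.80, adjusted p = 0.0376). Pgk1, the first ATP-yielding kinase of the path, had 225, 329 and 246 CPM in Col1a1+/- and 425, 443 and 505 CPM in WT (log2 fold change -0.78, adjusted p = 0.0402), the smallest estimate among the called members. No Col1a1+/- library reached the lowest WT library in any of these 5 genes.

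Of the shared genes that build glycogen, 2 passed. Gys1, the glycogen synthase of muscle and most tissues other than liver, had 60.2, 95.6 and 61.7 CPM in Col1a1+/- and 141, 185 and 243 CPM in WT (log2 fold change -1.39, SE 0.25, adjusted p = 0.0336). Ugp2, which makes the UDP-glucose that glycogen synthase uses, had 86.2, 145 and 83.6 CPM in Col1a1+/- and 198, 239 and 300 CPM in WT (log2 fold change -1.23, adjusted p = 0.0406). Both parted the genotypes in all libraries. Gbe1, the branching enzyme, missed the threshold with 21.2, 26.9 and 19.2 CPM in Col1a1+/- and 33.4, 49.1 and 66.9 CPM in WT (log2 fold change -1.15, adjusted p = 0.0505). Ppp1r3c, a broadly expressed glycogen-targeting subunit of protein phosphatase 1, had 36.7, 70.1 and 58.7 CPM in Col1a1+/- and 106, 51.3 and 127 CPM in WT. Its groups overlapped through WT replicate 2 (log2 fold change -0.79, SE 0.37, adjusted p = 0.271).

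Of the 11 general isoforms 1 fell by edgeR, Pfkfb3, and 2 others, Ldhb and Pygl, had log2 fold changes below 0 that did not pass. The other 8 lay above 0 on the TMM scale, and 7 of those 8 lay below 0 on the osteocyte scale, where Aldoc stood at 0.10. Hk1, the hexokinase of most cells, had 94.4, 95.6 and 98.7 CPM in Col1a1+/- and 98.9, 94.7 and 85.8 CPM in WT (log2 fold change 0.05, SE 0.10, adjusted p = 0.826). Pfkl, the liver-type phosphofructokinase, had 50.9, 44.2 and 46.8 CPM in Col1a1+/- and 44.3, 42.9 and 37.7 CPM in WT (0.18, SE 0.11), and Pfkp, the platelet type, had 39.5, 36.9 and 41.5 CPM in Col1a1+/- and 40.3, 34.2 and 31.3 CPM in WT (0.16, SE 0.12). Pgam1, the general mutase, had 58.5, 54.4 and 70.6 CPM in Col1a1+/- and 65.6, 54.7 and 48.3 CPM in WT (0.12, SE 0.14). The groups overlapped in these 4 genes, and no log2 fold change was as large as 2 SE. Eno1, the general enolase, likewise had 290, 279 and 316 CPM in Col1a1+/- and 306, 250 and 222 CPM in WT (0.19, SE 0.14).

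In 3 general isoforms all Col1a1+/- libraries lay above all WT libraries, which 14% of all tested genes did, and none passed edgeR. Aldoc, an aldolase known mainly from brain, had 5.72, 6.32 and 6.85 CPM in Col1a1+/- and 3.10, 4.71 and 3.91 CPM in WT, 0.69 higher on the log2 scale (SE 0.22, adjusted p = 0.101 by edgeR and 0.0304 by DESeq2). Pygb, the brain-type glycogen phosphorylase, had 37.2, 34.6 and 40.8 CPM in Col1a1+/- and 31.0, 33.2 and 33.2 CPM in WT (0.21, SE 0.11, adjusted p = 0.27). Slc2a1, which encodes the basal transporter GLUT1, had 15.4, 14.3 and 14.3 CPM in Col1a1+/- and 14.1, 9.64 and 13.8 CPM in WT (0.23, SE 0.17, adjusted p = 0.48). Over all members, 23 had every Col1a1+/- library below every WT library, against 14.5% of all tested genes, and 8 overlapped.

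The other 3 genes of that class had log2 fold changes below 0. Pfkfb3, the kinase whose product fructose-2,6-bisphosphate drives phosphofructokinase, fell, with 73.7, 67.0 and 51.9 CPM in Col1a1+/- and 119, 107 and 135 CPM in WT (log2 fold change -0.90, SE 0.15, adjusted p = 0.024). Its relative Pfkfb1, made in liver and muscle, fell as well, with 6.89, 10.3 and 7.13 CPM in Col1a1+/- and 16.4, 21.3 and 21.8 CPM in WT (log2 fold change -1.29, SE 0.20, adjusted p = 0.0238). Ldhb, the heart-type lactate dehydrogenase that slow oxidative fibres also use, had 53.1, 65.6 and 39.3 CPM in Col1a1+/- and 63.9, 124 and 157 CPM in WT. Its groups overlapped between Col1a1+/- replicate 2 and WT replicate 1 (log2 fold change -1.12, SE 0.34, adjusted p = 0.113, and 0.0217 without WT replicate 1). A list of 11 slow-fibre markers took 0.0536%, 0.0947% and 0.0338% of counts in Col1a1+/- and 0.128%, 0.155% and 0.327% in WT, and its part in the Ldhb values was not tested.

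Pygl, the phosphorylase of liver and of white blood cells, rested on 1 library. It had 28.2, 21.5 and 21.0 CPM in Col1a1+/- and 70.7, 24.2 and 26.3 CPM in WT, where WT replicate 1 was the library with the high neutrophil markers. The log2 fold change of -0.78 (SE 0.43, adjusted p = 0.342) was -0.07 without that library. Whether neutrophil RNA accounts for the difference was not tested.

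Related genes were then set against each other within each library, in 6 pairs a muscle isoform over a general one and in 6 pairs of other classes, a comparison that no scaling of libraries can alter. The difference between genotypes in the log2 ratio of 2 genes is also the test of whether they changed by unequal amounts. The 12 pairs were compared by exact two-sided permutation tests, for which 3 libraries against 3 cannot give a p below 0.1. In 8 of the 12 the ratio was lower in every Col1a1+/- library than in every WT library, each with an exact permutation p = 0.1 (0.15 adjusted over the 12 pairs).

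Eno3 reads numbered 2.18, 4.46 and 2.00 for each Eno1 read in Col1a1+/- and 5.94, 8.48 and 12.8 in WT, a difference in log2 ratio of -1.68 (SE 0.49). The ratio of Pgam2 to Pgam1 was 5.03, 9.49 and 3.65 in Col1a1+/- and 10.4, 19.0 and 25.5 in WT (difference -1.62, SE 0.56), the narrowest gap of the 8, between Col1a1+/- replicate 2 and WT replicate 1. For Pfkm against Pfkl it was 9.66, 20.3 and 9.49 in Col1a1+/- and 30.2, 37.9 and 59.3 in WT (difference -1.73, SE 0.46), and against Pfkp the difference was -1.71 (SE 0.49). Each of these 4 differences was more than 2 SE from 0. Pygm against Pygb gave 18.5, 38.6 and 16.1 in Col1a1+/- and 65.4, 64.2 and 84.0 in WT (difference -1.65, SE 0.41). Hk2 against Hk1 gave 0.762, 0.959 and 0.526 in Col1a1+/- and 1.52, 1.81 and 2.87 in WT (difference -1.45, SE 0.37), so that Hk1 had more reads than Hk2 in every Col1a1+/- library and fewer in every WT library. The transporters Slc2a4 and Slc2a1 gave a difference of -1.73 (SE 0.52), and Aldoa against Aldoc gave -2.05 (SE 0.36).

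In the other 4 pairs the groups overlapped. Ldha against Ldhb had 13.6, 17.2 and 18.2 in Col1a1+/- and 23.8, 14.0 and 13.1 in WT, a difference of -0.01 (SE 0.30, exact p = 1). Pygm against Pygl had a difference of -0.83 (SE 0.71, exact p = 0.3), and -1.41 without WT replicate 1. Ppp1r3a against Ppp1r3c had -0.81 (SE 0.46, exact p = 0.2) and Pfkfb1 against Pfkfb3 had -0.39 (SE 0.27, exact p = 0.2).

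**Figure D3:**
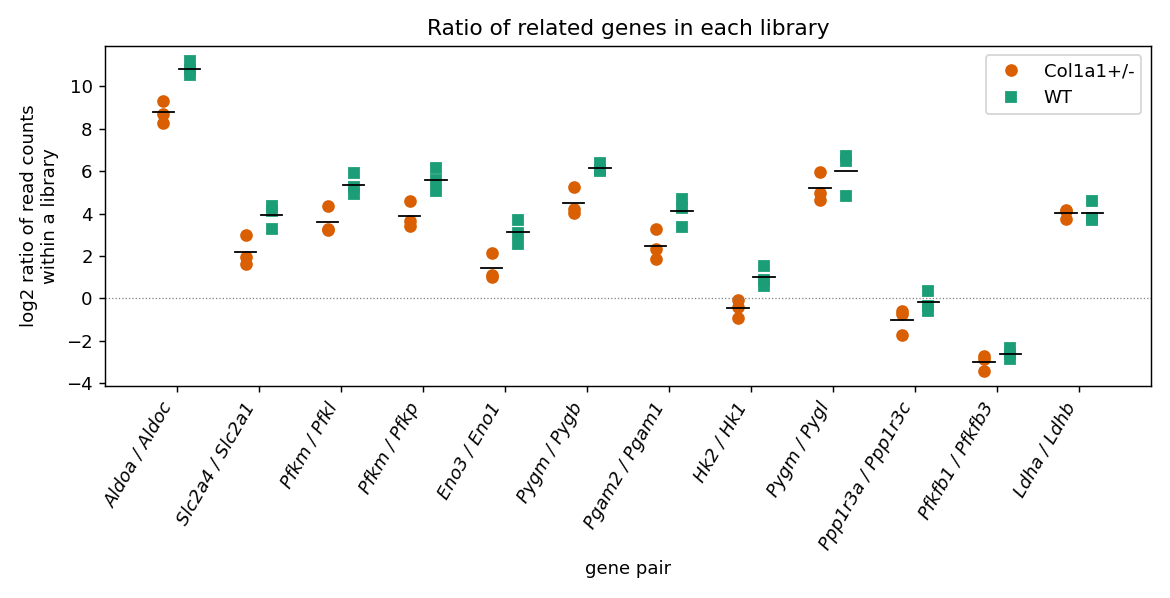
Log2 ratio of the read counts of 2 related genes within each library, for 12 pairs, in Col1a1+/- (circles) and WT (squares), with lines at the group means. The genotypes are apart for 8 pairs and overlap for Pygm/Pygl, Ppp1r3a/Ppp1r3c, Pfkfb1/Pfkfb3 and Ldha/Ldhb.

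Per exon length Pfkm, Pgam2, Eno3 and Pygm were the main transcripts of their families in all 6 libraries. Shares of length-scaled expression (TPM, counts per exon length scaled to the same total in each library) put Pfkm at 94.3% ± 2.04 of the phosphofructokinases in Col1a1+/- and 98.2% ± 0.589 in WT (SD, n = 3 each). Pgam2 held 92.5% ± 3.07 of its family in Col1a1+/- against 97.4% ± 1.19 in WT, Eno3 88.8% ± 3.89 against 96.2% ± 1.35 in WT, and Pygm 95.7% ± 1.66 against 98.2% ± 0.712 in WT. Among the hexokinases Hk2 held 52.1%, 57.8% and 42.9% in the Col1a1+/- libraries and 68.5%, 72.1% and 80.4% in WT. The muscle isoform Ppp1r3a was the lesser of its pair, with 19.2%, 20.8% and 10.6% of the per-length sum with Ppp1r3c in Col1a1+/- and 20.6%, 33.5% and 23.4% in WT, and Pfkfb1 held 15.0% to 22.5% beside Pfkfb3 in Col1a1+/- and 20.6% to 27.2% in WT. Summed over Eno3 and Eno1, enolase stood at 1750 ± 547 TPM in Col1a1+/- and 3743 ± 447 TPM in WT, and hexokinase at 76.8 ± 4.88 TPM in Col1a1+/- and 119 ± 12.9 TPM in WT. Aldoa was the most abundant member at 3190 ± 970 TPM in Col1a1+/- and 6730 ± 887 TPM in WT.

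The same genes were then read against the 27 skeletal muscle markers, as reads for each 1000 marker reads in the library. Pfkm gave 22.4, 21.5 and 23.3 in Col1a1+/- and 22.9, 22.6 and 23.6 in WT, a log2 difference of -0.04, while its CPM differed 2.83-fold. Eno3 gave 28.7, 29.7 and 33.1 in Col1a1+/- and 31.2, 29.4 and 30.0 in WT (log2 difference 0.01), and Pygm gave 31.4, 32.0 and 34.5 in Col1a1+/- and 34.7, 29.6 and 29.4 in WT (0.07). The groups overlapped for all 8 muscle isoforms, Hk2, Slc2a4 and Pfkfb1, with log2 differences between -0.04 and 0.24. Exact two-sided permutation p-values for these 11 genes ran from 0.4 to 1, unadjusted, and do not show that the ratios were equal.

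On this scale 76.8% of all tested genes lay above WT in every Col1a1+/- library and 0.211% below, and the median log2 difference was 1.501 over the 18357 genes with counts in every library. The shared forms had log2 differences between 0.12 and 0.77, with 6 of 12 above WT in every library. Gys1 lay at the low end with 2.74, 2.28 and 3.24 in Col1a1+/- and 2.42, 2.57 and 2.56 in WT. Pgk1 gave 10.2, 7.85 and 12.9 in Col1a1+/- and 7.29, 6.15 and 5.33 in WT (log2 difference 0.71), and Gpi1 gave 18.8, 12.1 and 19.1 in Col1a1+/- and 11.8, 9.91 and 8.70 in WT (0.70). The general isoforms had a median of 1.66 with 8 of 11 above WT in every library, near the share of all genes, while Ldhb, Pygl and Pfkfb3 overlapped. These differences carry the genotype difference of the muscle markers themselves, which is in every denominator. Against 13 fast-fibre markers in place of all 27, the median was -0.09 for the muscle isoforms and 1.56 for the general isoforms. Pfkm then lay lower in every Col1a1+/- library, at 32.4, 31.2 and 32.86 against 32.91, 35.4 and 38.4 in WT. Its nearest libraries were almost equal (exact permutation p = 0.1, unadjusted, the lowest possible). The share of all genes lower on the fast-fibre scale was not counted.

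**Figure D4:**
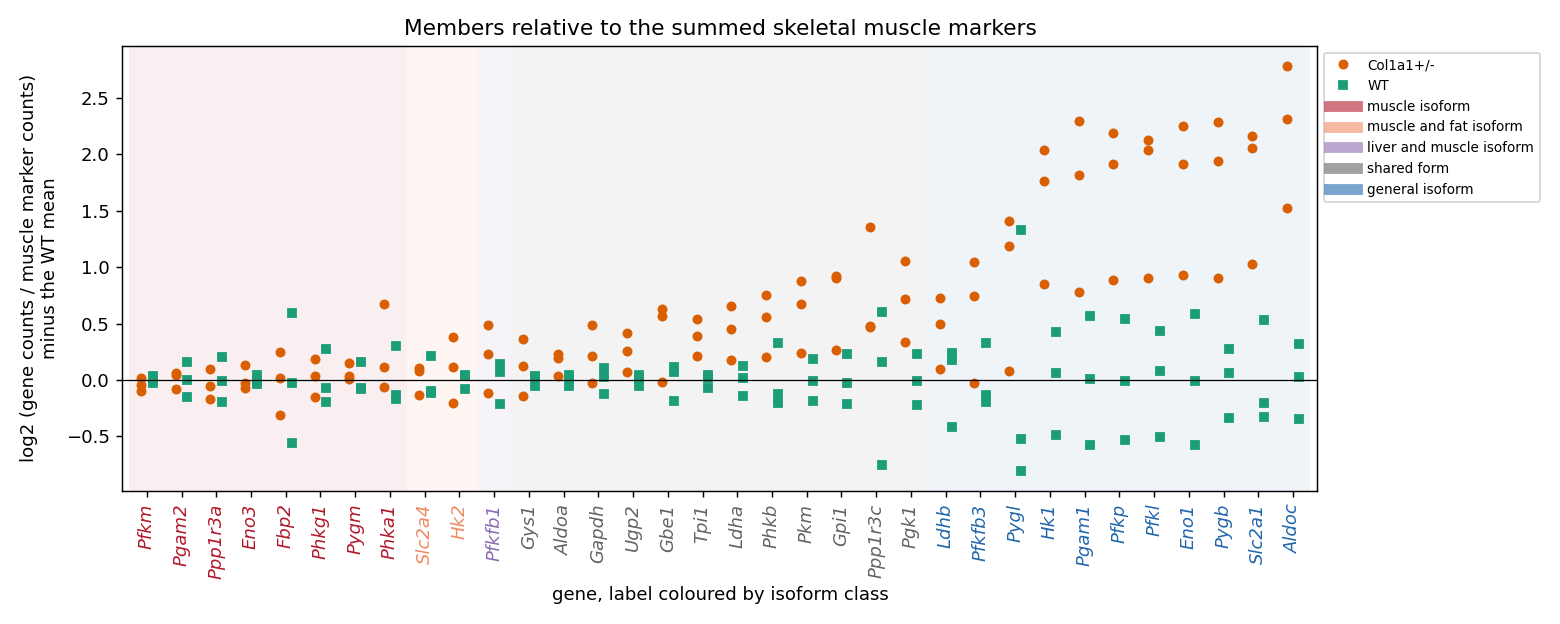
Log2 of each gene's counts over the summed counts of 27 skeletal muscle markers, minus the WT mean, in Col1a1+/- (circles) and WT (squares) libraries. WT centres on 0 by construction. The Col1a1+/- means lie between -0.04 and 0.24 for the muscle isoforms and reach up to 0.77 for the shared forms. Single libraries spread further, with an SD of 0.58 for the muscle isoform Fbp2 in WT. In 8 of the 11 general isoforms every Col1a1+/- library lies above WT.

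The members were also set against the order of the muscle markers over the 6 libraries. Ordered by the mean log2 CPM of the markers, the libraries ran Col1a1+/- replicates 3, 1 and 2 (6.84, 7.49 and 8.54) and then WT replicates 1, 2 and 3 (9.40, 9.85 and 10.55). This exact order of all 6 libraries was found in 12 of 34 members, 4 muscle isoforms, Hk2, Slc2a4, 6 shared forms and no general isoform, and in 3.59% of all tested genes. It requires every Col1a1+/- library to lie below every WT library, so it includes the genotype difference. Such a gap was seen in 23 members, and 12 of them kept the order. Over all tested genes 665 of 2693 did so. The order within a genotype alone was not counted. With the marker score as a covariate, edgeR called 0 members (1 at an unadjusted p under 0.05), and over all tested genes 0 lower and 1 higher. The median was then -0.11 for the muscle isoforms and -0.12 for the general isoforms. The score and the genotype run together in these 6 libraries, so muscle content and genotype cannot be told apart.

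Slow and fast fibre markers differed in size beside these enzymes. The 13 fast-fibre markers had a median log2 fold change of -1.36 (4 called lower by edgeR, 0 higher), near that of the muscle isoforms at -1.43. The 11 slow-fibre markers had a median of -3.29 (2 called lower, 0 higher). The difference between these lists was not tested.

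Beyond the members, 6 lists of related genes held 99 tested genes. By edgeR 22 of them fell and 0 rose, where 2.91% of all tested genes fell and 1.43% rose. At an unadjusted p under 0.05 there were 48 lower and 7 higher, where 4228 of all 18514 genes passed in either direction. DESeq2 called 43 lower and 2 higher, against 8.78% and 4.72% of all genes with an adjusted p. Of 23 other glycogen genes 8 fell, with a median log2 fold change of -0.46. Prkag3, the muscle gamma subunit of AMP-activated kinase, had 20.2, 22.2 and 16.2 CPM in Col1a1+/- and 48.9, 47.0 and 48.9 CPM in WT (log2 fold change -1.31, SE 0.13, adjusted p = 0.0147). Prkab2, a beta subunit of the same kinase, had 53.5, 65.9 and 52.9 CPM in Col1a1+/- and 122, 114 and 127 CPM in WT (-1.08, SE 0.12, adjusted p = 0.0192). The WT libraries of these genes lay close together, with no overlap with Col1a1+/-.

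Of 16 other glycolysis genes 2 fell (median -0.36). Tigar, a phosphatase that lowers fructose-2,6-bisphosphate, had 20.02, 27.2 and 21.8 CPM in Col1a1+/- and 58.3, 55.6 and 58.6 CPM in WT (log2 fold change -1.32, SE 0.13, adjusted p = 0.0147), and Ldhd, which oxidises D-lactate, stood at -1.21 (adjusted p = 0.0458). Of 15 further sugar and lactate transport genes 2 fell (median 0.01), both of them lactate carriers. Slc16a3, the carrier MCT4 of glycolytic muscle, had 61.5, 89.9 and 60.6 CPM in Col1a1+/- and 164, 154 and 201 CPM in WT (-1.29, SE 0.18, adjusted p = 0.0212), and Slc16a1, the carrier MCT1, stood at -0.70 (SE 0.11, adjusted p = 0.0238).

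Genes around pyruvate entry into mitochondria and the glycerol phosphate shuttle had a median of -0.88, with 6 of 21 lower. Gpd1, the cytosolic glycerol phosphate dehydrogenase, had 51.1, 87.5 and 52.6 CPM in Col1a1+/- and 130, 141 and 186 CPM in WT (-1.26, SE 0.24, adjusted p = 0.0376), and Gpt2, an alanine aminotransferase, stood at -1.01 (SE 0.17, adjusted p = 0.0269). Of 16 hypoxia and glycolysis regulators 4 fell (median -0.26), among them Ppargc1a, the coactivator of mitochondrial genes, with 4.08, 4.30 and 2.47 CPM in Col1a1+/- and 9.64, 9.20 and 14.0 CPM in WT (-1.60, SE 0.26, adjusted p = 0.0244), and Egln1, an oxygen-sensing hydroxylase (-0.96, SE 0.18, adjusted p = 0.0333). None of 8 pentose phosphate genes passed edgeR (1 lower and 0 higher at an unadjusted p under 0.05), with Rpia nearest at -0.46 (adjusted p = 0.141). With the muscle score as a covariate 0 of the 99 genes passed, where over all tested genes 0 were lower and 1 higher. The score and the genotype run together in these libraries, so that fit cannot show what part muscle RNA has in these calls.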

How the data were processed

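The authors deposited raw read counts per gene, not normalized, in a separate table for each of 6 tibia libraries. Reads were counted over exons with featureCounts 2.0.3 and the Ensembl release 107 annotation of GRCm39, per the file headers, and Trimmomatic 0.39, HISAT2 2.2.1 and SAMtools 1.20 are named in the submitters' processing notes. Each mate counts as 1 read and strand was not used, so overlapping and antisense genes cannot be parted. Symbols came from a gene name table by Ensembl identifier and named 91.8% of 56748 genes. Exon lengths are those of the deposited tables.

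Genes passing edgeR's filterByExpr (18514, all members among them) were scaled by TMM and compared with edgeR 4.0.16 in R 4.3.3 (quasi-likelihood, robust, genotype as the only term, two-sided, adjusted over all tested genes). A log2 fold change is Col1a1+/- over WT and its SE is the fold change over the square root of F. Single ratios were tested with exact permutation in scipy 1.17.1. The test was run on simulated counts first. DESeq2 1.42.0 and limma 3.58.1 were alternatives. The osteocyte scale uses the geometric mean of the osteocyte markers. Chi-square over its degrees of freedom was 26.2 to 90.3 between libraries of a genotype, so none was a copy. Members, isoform classes and lists were chosen with earlier results of these data known. All called members and all pair members are given by library, and of each wider list up to 2 called genes with the smallest p.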

Additional observations from a re-analysis of the deposited data

How the results depend on the processing

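Leaving out 1 library gave 0 to 1172 genes lower and 0 to 594 higher overall (538 and 265 with all 6), 0 to 23 members lower, 0 to 0 higher, 0 to 8 muscle isoforms, 0 to 11 shared forms, 0 to 2 general isoforms, and 0 to 30 lower and 0 to 3 higher genes of the wider lists. Class medians then ranged from -1.84 to -1.23 for muscle isoforms, -1.76 to -1.13 for Hk2 and Slc2a4, -1.30 to -0.91 for shared forms and 0.08 to 0.26 for general isoforms. Hk1 turned to -0.0084 without WT replicate 3. The Ldha to Ldhb difference ranged from -0.17 to 0.26 and was positive, at 0.12 and 0.26, without Col1a1+/- or WT replicate 1.

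DESeq2 called 1468 genes lower and 788 higher, 1 member higher, 2 general isoforms lower, and 43 lower and 2 higher in the wider lists. Library totals gave 588 genes higher and 1 higher in the wider lists. Without a filter there were 895 lower and 577 higher genes, 10 members lower, of them 2 muscle isoforms and 6 shared forms, and 1 wider gene higher.

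With the replicate number as a block, 89 genes were lower and 37 higher, 4 members lower (1 muscle isoform, 2 shared forms, 0 general isoforms) and 7 wider genes lower. The labels do not say that the numbers pair the samples. Deviations of same-numbered libraries correlated at 0.107, 0.0413 and -0.122, and 1 of 3 Col1a1+/- libraries matched its own number best. These values show no sign of pairing, but so few libraries cannot exclude it. For the isoform ratios a paired mean difference equals the unpaired one.

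Scaled on osteocyte markers, 2819 genes were lower and 12 higher, 3 general isoforms and 51 wider genes lower, and the medians were -2.05 (muscle), -2.01 (Hk2 and Slc2a4), -1.68 (shared) and -0.52 (general). Signs turned for Hk1 (-0.60), Pfkl (-0.46), Pfkp (-0.52), Pgam1 (-0.57), Eno1 (-0.50), Pygb (-0.43) and Slc2a1 (-0.46).

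With the muscle score as a covariate, 0 genes were lower and 1 higher by edgeR (1287 at an unadjusted p under 0.05), with 0 members, 0 muscle isoforms, 0 shared forms, 0 general isoforms and 0 wider genes lower. Medians were -0.11 (muscle), 0.12 (Hk2 and Slc2a4), -0.19 (shared) and -0.12 (general, 0.16 without the covariate), with muscle and general isoforms alike in median. Signs turned for Aldoa (0.0325), Tpi1 (0.0378), Ppp1r3a (0.12), Slc2a4 (0.43), Ldhb (0.34), Hk1 (-0.12), Pfkl (-0.0646), Pfkp (-0.22), Pgam1 (-0.48) and Eno1 (-0.25). The cause of these changes was not tested. Depth limits few members, since the lowest, Aldoc, had about 3 to 7 CPM.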
